A study of Mus musculus with 5 samples.

Results

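The text describes 9 genes best known from neurons, measured in cells of the ventricular walls and spinal cord of adult mice: Stmn2, Lin7a, Lmo3, Sncg, Calb1, Snap25, Syt1, Tubb3 and Dcx. They were chosen by name for their regional pattern in these same cells, and all 9 were present among the 16347 genes of the count table. The series asked how Sox9 and the NFI transcription factors time neurogenesis and ependymal maturation in dopamine progenitors. Each library came from 1 cell sorted into a well of a 96-well plate, by Smart-seq2, which covers whole polyadenylated transcripts and carries no molecular identifiers. There were 5 groups with 1 sample each, so no difference between groups has a test or a p-value. Every statement below is a description of these samples.

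Cells of the spinal cord, the midbrain aqueduct and both the third and the lateral ventricle came from FoxJ1CreERT2 R26TdT mice aged 3 months (10 animals, 5 females and 5 males). Here the Foxj1 promoter drives an inducible Cre that switches on a tdTomato reporter, so sorted cells are those in which Foxj1, the master regulator of motile cilia, was active when Cre was induced. The fifth sample was midbrain of Nkx2-2Cre R26TrapC mice of the same age (7 animals, all females), in which Cre marks cells with a history of Nkx2-2, a transcription factor of ventral progenitors. The labels do not say which animal a well came from, and they gave brain as the tissue of every sample, with the spinal cord named in the title of its sample. The columns of the lateral and the third ventricle carried other names, Forebrain and Tanycytes, and were assigned by anatomy. The contrast of spinal cord with brain does not depend on that assignment.

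The spinal cord sample held 114 cells, the lateral ventricle 240 and the third ventricle 245. Midbrain cells of both lines were split in order by marker level in CPM, which are reads of a gene scaled to the same total in every cell or group: at least 1000 CPM of Ccdc153, a gene of ependymal cells, then at least 500 CPM of Sspo, the SCO-spondin gene of the subcommissural organ, then at least 500 CPM of Mog, a myelin gene of oligodendrocytes, then the rest. In the Foxj1 line this gave 317, 196, 0 and 34 cells. In the Nkx2-2 line it gave 19 Ccdc153 cells, 12 Sspo cells, 243 Mog cells and 53 others. Of the midbrain Foxj1 cells, 44 lay between 500 and 1000 CPM of Ccdc153 and 27 between 1000 and 2000 CPM. The nearest cells on either side of the threshold had 971 and 1022 CPM. The brain regions set against the spinal cord were the whole samples of the lateral and the third ventricle and the midbrain Ccdc153 cells.

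Ependymal cells are the ciliated epithelium of the ventricles and the central canal, and their cilia move cerebrospinal fluid. The ependymal label held against 10 ependymal markers, all of which reached 10 CPM in each of the 4 regions. At least 1000 CPM of Ccdc153 was present in 99 of 114 spinal cord cells, 239 of 240 lateral ventricle cells and 240 of 245 cells of the third ventricle. The summed level of the 10 markers was lower in the spinal cord (9772 CPM) than in the brain regions (15373 to 16341 CPM), and spinal cord cells had fewer genes detected (median 3979.5, against 4866 to 5435.5) at a like median depth (759184 reads per cell, against 691446 to 734669). The part these differences play in the levels below was not tested. For Rax, a defining marker of tanycytes, the sample of the third ventricle held 0 reads.

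The 9 genes do different things in neurons. Stmn2, Tubb3 and Dcx belong to the microtubule apparatus of growing axons and migrating neuroblasts. Snap25 and Syt1 are the membrane-fusion protein and the calcium sensor of synaptic vesicle release, Lin7a is a PDZ-domain scaffold of synapses and epithelial junctions, and Sncg encodes gamma-synuclein. Calb1 encodes the calcium buffer calbindin, and Lmo3 a LIM-only protein that joins nuclear complexes through LDB cofactors.

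The sequence just upstream of the start was taken from RefSeq (GRCm38.p6) for the genes whose level differed most between spinal cord and brain. Of the 9 genes, 6 were matched in the promoter table. Stmn2, Calb1 and Snap25 were not matched. Each run below reads 5′ to 3′ on the gene's strand and stops before the first annotated exon base, with each CG pair in capitals. They are shown because Lin7a and Lmo3 were higher in spinal cord cells, and Sncg lower.
Lin7a, chr10:107271581-107271685, plus strand: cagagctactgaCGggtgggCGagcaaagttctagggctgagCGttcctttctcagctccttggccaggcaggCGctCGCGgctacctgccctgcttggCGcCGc
Lmo3, chr6:138581969-138582218, minus strand: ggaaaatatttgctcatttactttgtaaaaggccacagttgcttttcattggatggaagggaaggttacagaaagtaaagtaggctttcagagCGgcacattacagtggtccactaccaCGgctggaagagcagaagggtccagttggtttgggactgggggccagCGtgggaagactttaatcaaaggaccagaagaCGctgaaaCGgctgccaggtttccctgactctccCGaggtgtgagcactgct
Sncg, chr14:34374790-34374919, minus strand: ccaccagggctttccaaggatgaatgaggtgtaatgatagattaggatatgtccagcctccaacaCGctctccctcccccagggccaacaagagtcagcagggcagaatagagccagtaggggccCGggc

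The printed Lin7a run holds 8 CG pairs, the Lmo3 run 6 and the Sncg run 2. Over the full window of 250 bases, GC content was 63.6% for Lin7a, 50% for Lmo3 and 61.6% for Sncg, against a median of 52.4% over 32851 promoters. The ratio of observed to expected CG pairs was 0.667 for Lin7a, 0.400 for Lmo3 and 0.301 for Sncg, against a median of 0.373. The second annotated start of Lin7a had a GC content of 66% and a ratio of 0.714. So the windows of the pair of genes higher in spinal cord cells were unlike each other in CG content. In both Lin7a windows and those of Lmo3 and Sncg, none of 4 motifs was found on either strand. The TATA box was searched as TATAAA, which 12.4% of all promoters hold. For the RFX factors of ciliated cells the half-site GTTGCC was used, found in 10.4% of promoters. The FOX motif, TGTTTAC, occurs in 3.17% of them. The PBX-HOX motif, TGATTNAT, occurs in 2.82%. The search says only that these letters are not in these windows.

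The 9 genes fell into 3 patterns. Stmn2, Lin7a and Lmo3 were higher in spinal cord cells, Sncg and Calb1 were at their highest in the brain ventricles, and Snap25, Syt1, Tubb3 and Dcx stayed low in the ependymal cells of every region. By the rule of size used here, at least 4-fold beyond every brain region with at least 10 CPM in the higher group, 3 of the 9 genes were higher in the spinal cord (Stmn2, Lin7a and Lmo3), where 1.34% of 10823 genes were. One gene, Sncg, was lower, where 2.18% were. The genes were chosen for this contrast, so nothing is read from that comparison. Calb1 and Snap25 reached 10 CPM in a region without such a difference, and Syt1, Tubb3 and Dcx reached 10 CPM in none.

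**Figure D1:**
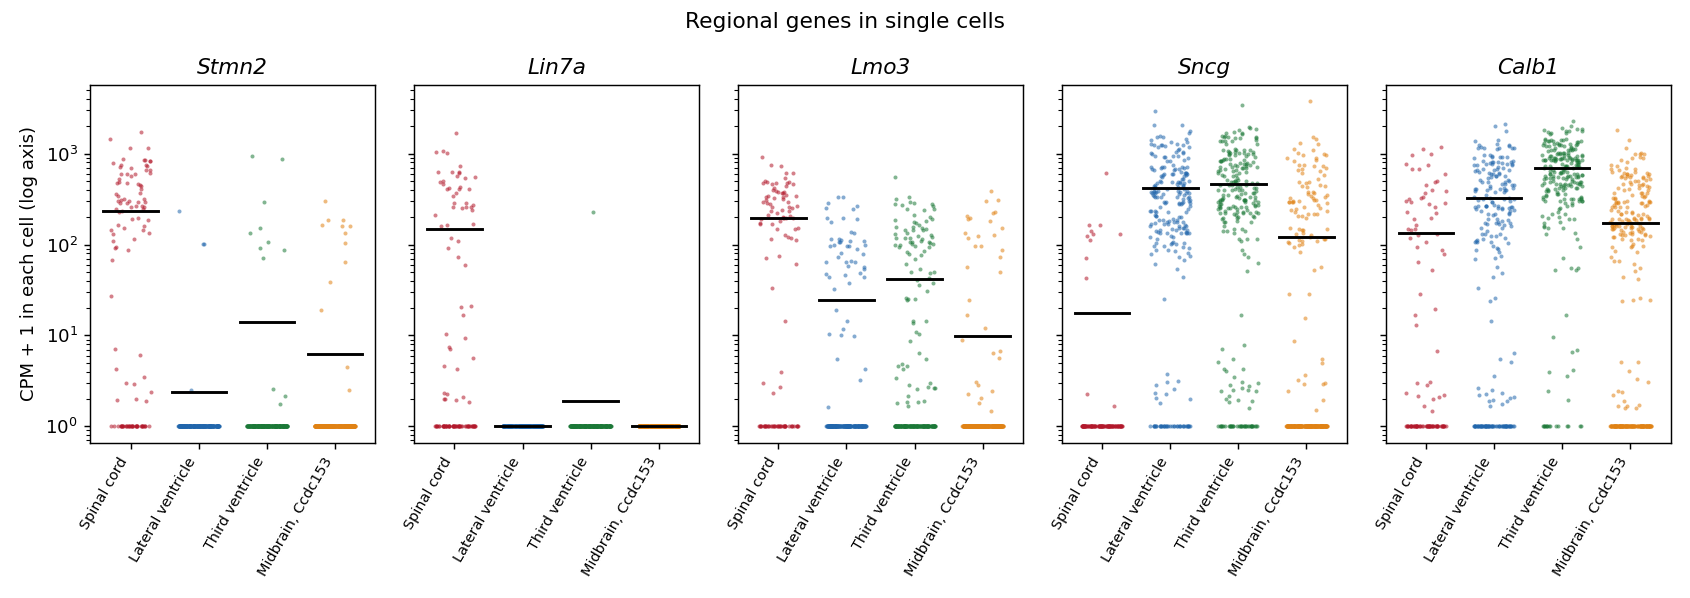
Each point is 1 cell and the black bar is the CPM of the summed reads of its region, both drawn as CPM + 1 on a log axis, for 5 genes in 4 groups of Foxj1 line cells. Stmn2, Lin7a and Lmo3 form a cloud at about the same height in the spinal cord column, while Sncg and Calb1 form theirs in the brain columns.

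Stmn2 encodes stathmin-2, a protein that binds tubulin in the growth cones of neurons (chr3:8509360-8561606, plus strand). It stood at 236 CPM in the spinal cord cells (95% Poisson interval 232 to 239). The brain regions had 13.2 (the third ventricle), 5.29 (midbrain Ccdc153 cells) and 1.36 CPM (the lateral ventricle). At least 1 read was found in 67.5% of spinal cord cells (Clopper-Pearson 95% interval 58.1 to 76.0), against 4.90%, 4.10% and 1.67% in these brain regions. Both kinds of interval cover counting error only, because without molecular identifiers 1 molecule can give many reads. The spinal cord sample was thus the one in which most cells carried the transcript. Its level was 17.9-fold that of the third ventricle, 44.5-fold that of the midbrain and 173-fold that of the lateral ventricle. The median spinal cord cell had 144 CPM and the upper quartile was 433 CPM, while the median brain cell had 0. The cell with the most reads held 4.99% of all spinal cord reads, so the sum did not rest on 1 cell.

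In the third ventricle, by contrast, 1 cell held 37.9% of the Stmn2 reads. That cell had 0.857 CPM of Ccdc153 and 7373 CPM of the neuron markers, with reads of 6 of the 9 measured. Among cells with at least 1000 CPM of Ccdc153 in every region, Stmn2 was 230 CPM in the spinal cord and 4.63 in the third ventricle, and the fold over the highest brain region, then the midbrain, was 43.5. Leaving out the cell with the most Stmn2 reads in each region gave 27.7-fold, and the deposited log2 values gave 30.7-fold.

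Lin7a encodes a small scaffold that binds CASK and APBA1 at synapses and MPP5 at epithelial junctions (chr10:107271686-107421474, plus strand). Spinal cord cells had 149 CPM (146 to 151), with a read in 49.1% of cells (39.6 to 58.7). The lateral ventricle and the midbrain Ccdc153 cells had 0 reads in 240 and 317 cells. All 179 reads of the third ventricle came from 1 cell. It had 0 CPM of Ccdc153 and 5088 CPM of the neuron markers, with reads of 9 of 9. No brain cell with at least 1000 CPM of Ccdc153 in these regions had a Lin7a read. Computed with 3 reads in place of 0 over the whole group, the spinal cord level was 8971-fold that of the lateral ventricle and 12689-fold that of the midbrain. Both values cover counting error of reads only and are not lower limits, because 1 cell with the transcript can give many reads, such as the 179 above. A count of 0 cells leaves room for a share of up to 1.25% and 0.946% of cells with a read there.

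Lmo3 (chr6:138362918-138581968, minus strand) was also read in the brain regions, at unequal levels. Spinal cord cells had 195 CPM (192 to 198), the third ventricle 40.3, the lateral ventricle 23.6 and the midbrain Ccdc153 cells 8.80. The shares of cells with a read followed the same order, at 62.3% (52.7 to 71.2), 37.6%, 21.7% and 10.7%. The level in the spinal cord was 4.84-fold that of the third ventricle, 8.28-fold that of the lateral ventricle and 22.2-fold that of the midbrain. Among cells with at least 10 CPM of the gene, the median was 279 CPM in the spinal cord and 95.3 to 128 CPM in the brain regions, so Lmo3 differed both in how many cells had it and in how much they had.

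Per kilobase of exon, the scale on which genes can be compared, the 3 genes lay close together in spinal cord cells: 44.9 CPM per kb for Lin7a, 42.0 for Stmn2 and 38.0 for Lmo3. Calb1 stood at 27.8 and Sncg at 19.6 CPM per kb in the same cells.

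Sncg encodes gamma-synuclein, a member of the synuclein family that is abundant in sensory neurons and retinal ganglion cells (chr14:34370274-34374789, minus strand). It ran the other way. The third ventricle had 462 CPM, the lateral ventricle 419, the midbrain Ccdc153 cells 120 and the spinal cord 16.7 (15.9 to 17.5). A read was present in 84.9%, 84.2%, 31.5% and 10.5% of cells. Spinal cord cells were 7.20-fold lower than the midbrain, 25.1-fold lower than the lateral ventricle and 27.7-fold lower than the third ventricle. In the median cell the level was 308 CPM in the third ventricle, 261 in the lateral ventricle and 0 in both the midbrain and the spinal cord. One cell held 29.7% of the spinal cord reads of Sncg. Per kilobase, Sncg reached 542 CPM in the third ventricle, above every other of the 9 genes in any region. It was also the highest of the 9 per kilobase in the lateral ventricle (492) and the midbrain (141).

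Calb1, the calcium buffer of Purkinje cells and many interneurons (chr4:15881264-15908064, plus strand), had the same order of regions with smaller steps. Its levels were 701 CPM (the third ventricle), 323 (the lateral ventricle), 171 (the midbrain) and 135 (the spinal cord, 132 to 137). Reads were found in 93.9%, 72.1%, 55.8% and 48.2% of cells. The spinal cord level was 1.27-fold below the midbrain, 2.40-fold below the lateral ventricle and 5.20-fold below the third ventricle, which did not meet the rule against the lowest brain region. Calb1 and Sncg were both transcripts that most ependymal cells of the third and lateral ventricles carried.

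The 4 remaining genes are the classic synaptic and immature-neuron markers. Snap25 (chr2:136713453-136782428, plus strand) stood at 13.5 CPM in the spinal cord, 15.1 in the third ventricle, 1.39 in the midbrain and 0.940 in the lateral ventricle, with a read in 8.77%, 3.27%, 1.89% and 1.25% of cells. The neuron-marker cell of the third ventricle described for Stmn2 held 63.9% of that region's Snap25 reads. With Ccdc153 at least 1000 CPM in every region, the third ventricle fell to 0.694 CPM, the spinal cord had 12.9, and Snap25 then also met the rule of size. A subset of spinal cord cells thus had Snap25 reads, 10 of 114.

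Tubb3 (chr8:123411424-123422015, plus strand) was at 2.87 CPM in the spinal cord, 5.64 in the third ventricle, 0.304 in the lateral ventricle and 0.266 in the midbrain. In the spinal cord 95.6% of its reads came from 1 cell, and in the third ventricle 76.7% came from the cell that held all the Lin7a reads. Syt1 (chr10:108497650-109010982, minus strand) was at 0.423 CPM in the spinal cord and 0.0352 to 1.66 in the brain regions. Dcx (chrX:143855842-143933311, minus strand) had 1 read in the spinal cord cells, and 0.00782 to 0.0540 CPM in the brain regions. No region had reads of Syt1, Tubb3 or Dcx in more than 5.83% of its cells, and of the 67 spinal cord cells with at least 10 CPM of Stmn2, 1 had as much Tubb3 and 0 had as much Dcx.

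**Figure D2:**
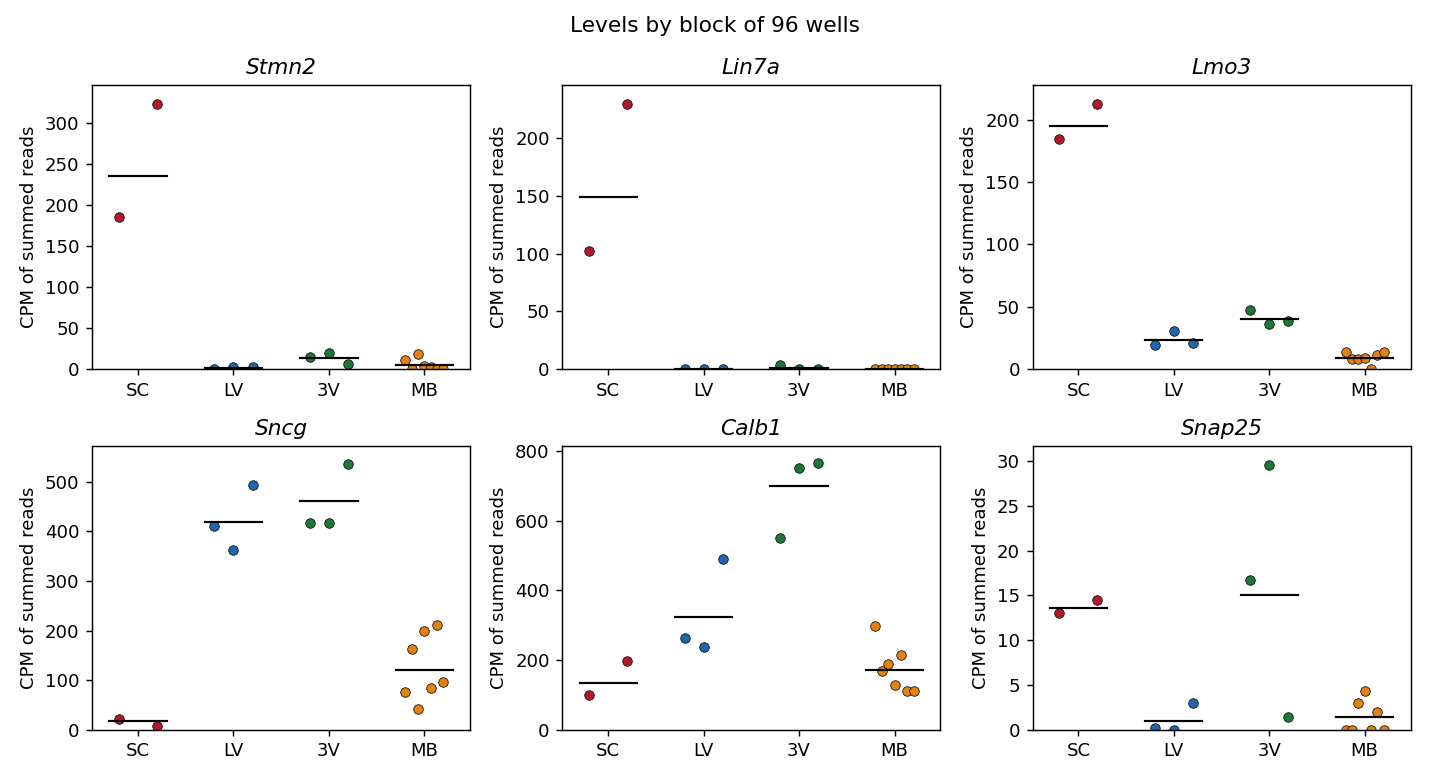
Each point is the CPM of the summed reads of 1 block of 96 consecutive cell numbers, taken as wells in order. The bar is the CPM of the whole region, for spinal cord (SC), the lateral ventricle (LV), the third ventricle (3V) and midbrain Ccdc153 cells (MB). Both spinal cord points lie above every brain point for Stmn2, Lin7a and Lmo3 and below every brain point for Sncg, while Calb1 and Snap25 overlap.

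Blocks of 96 consecutive cell numbers described the spread within a sample. The numbers in the column names were taken as the order of the wells, which is an assumption. Blocks are not replicates of a region, since the cells of a block come from the same sample. The spinal cord had 2 blocks, of 75 and 39 cells, and the brain regions had 13. Stmn2 was 185 and 323 CPM in the spinal cord blocks and 0 to 19.6 in the brain blocks, Lin7a was 102 and 230 against 0 to 3.09, and Lmo3 was 185 and 213 against 0.225 to 47.3. These 3 genes lay above every brain block in both spinal cord blocks, where 5.46% of genes did. Sncg was 21.8 and 7.78 CPM against 41.0 to 535, below every brain block, where 6.85% of genes were. The second block was further from the brain than the first for all 4 genes. Without the first block, Sncg was 15.4-fold below the midbrain in place of 7.20-fold, and Lin7a was 262-fold above the third ventricle in place of 169-fold.

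Among brain regions the order of the levels held up to the spread of the blocks only in part. The share of all genes whose blocks were apart was not computed between brain regions, so these ranges are a description only. For Lmo3 the blocks of the third ventricle (36.3 to 47.3 CPM), the lateral ventricle (19.5 to 30.6) and the midbrain (0.225 to 13.6) did not overlap. For Stmn2 the third ventricle (6.35 to 19.6) and the lateral ventricle (0.0147 to 2.43) were apart, and the midbrain (0 to 18.0) overlapped both. Sncg did not separate the third ventricle (416 to 535) from the lateral ventricle (361 to 493), and both were above the midbrain (41.0 to 212). Calb1 was highest in every block of the third ventricle (552 to 766), with overlap between the lateral ventricle (239 to 490) and the midbrain (110 to 299), and between the midbrain and the spinal cord (98.7 and 197).

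Between the third ventricle and the midbrain Ccdc153 cells, 5 of the 9 genes reached 10 CPM in either group. Of these, Lmo3, Calb1 and Snap25 were at least 4-fold higher in the third ventricle (4.58-fold, 4.09-fold and 10.9-fold), where 1.35% of genes at that level were. None of the 5 was at least 4-fold lower, where 0.866% were. The Snap25 value rests on the neuron-marker cell. In the lateral ventricle, none of the 9 was 4-fold higher or lower than in the midbrain, where 0.321% and 0.611% of genes were. At 10 CPM or more, no gene of the 9 thus stepped between lateral ventricle and midbrain as Stmn2 and Lin7a did between spinal cord and brain.

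Spinal cord cells with these transcripts carried ependymal genes. Of the 67 cells with at least 10 CPM of Stmn2, 58 had at least 1000 CPM of Ccdc153 and 67 had a Foxj1 read. The same counts were 39 and 42 of 42 for Lin7a, and 57 and 67 of 67 for Lmo3. Spinal cord cells below 10 CPM of each gene had like counts: 41 and 46 of 47 for Stmn2, 60 and 71 of 72 for Lin7a, and 42 and 46 of 47 for Lmo3. Most spinal cord cells thus had these ependymal genes with or without the 3 transcripts. The summed level of the ependymal markers was 9009 CPM in the Stmn2 cells and 10845 in the other spinal cord cells. The transcripts were therefore read in the same wells as the cilia genes.

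Neuron markers were measured beside them. The 9 neuron markers in the table summed to 217 CPM in the spinal cord, 102 in the third ventricle, 42.3 in the midbrain and 37.6 in the lateral ventricle. Of the spinal cord sum, 188 CPM was Snhg11, a long noncoding RNA. Rbfox3 and Elavl4 had 0 reads there, and Rbfox3 had 0 in the lateral ventricle too. All the other markers were read in the spinal cord. Syp stood at 14.3 CPM (4.17 to 15.3 in the brain regions) and Syn1 at 6.05 (1.22 to 6.35). Elavl3 stood at 4.46 CPM (1.17 to 2.21), with 79.9% of its spinal cord reads in 1 cell. With Snhg11 counted, the neuron markers were higher in spinal cord cells with at least 10 CPM of each gene than in the rest: 248 against 173 CPM for Stmn2, 297 against 161 for Lin7a and 278 against 96.0 for Lmo3. Without Snhg11, they summed to 23.7 against 36.9 CPM for Stmn2, 33.1 against 26.4 for Lin7a and 29.9 against 27.6 for Lmo3. The part of these markers in the levels was not tested. Leaving out cells with reads of 3 or more neuron markers other than Snhg11 (2 of the spinal cord, 8 of the third ventricle and 9 of the lateral one, and 4 of the midbrain) gave 45.0-fold for Stmn2, 4.78-fold for Lmo3 and 7.72-fold lower for Sncg, with 0 brain reads of Lin7a.

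Oligodendrocyte markers also moved with the region. They summed to 123 CPM in the spinal cord and 30.8 to 87.4 CPM in the brain regions. Their part in the result was not tested. In the Mog cells of the Nkx2-2 line, where these markers are at their highest, Stmn2 stood at 1.23 CPM, Lmo3 at 0.235 and Lin7a at 0.

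Within the spinal cord, the 3 genes marked overlapping sets of cells. At 10 CPM or more, 22 of 114 cells had all of Stmn2, Lin7a and Lmo3, 36 had 2 of them, 38 had 1 and 18 had none. In brain, 3 of 245 cells (the third ventricle), 1 of 240 (the lateral ventricle) and 0 of 317 (the midbrain) had 2 of them, and none had all. Stmn2 and Lin7a met in 29 cells, Stmn2 and Lmo3 in 43, and Lin7a and Lmo3 in 30. The product of the shares of cells with each gene gives 24.7, 39.4 and 24.7 cells, close to these counts. Rank correlations of CPM over the 114 cells were weak (Spearman rho 0.23, 0.20 and 0.19) and are given as a description, since all cells belong to 1 sample and differ in depth. Stmn2 and Sncg met in 1 cell, of 67 and 10 cells that had each.

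**Figure D3:**
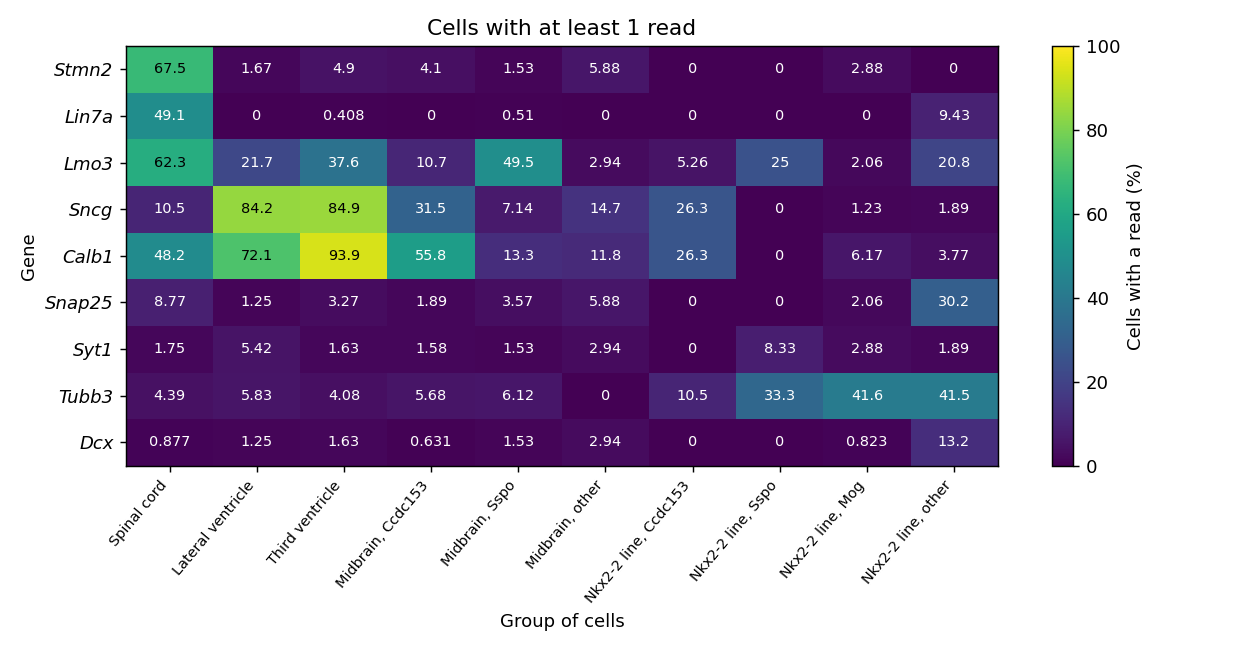
The colour and the printed number give the percentage of cells with at least 1 read of each of the 9 genes in each group of cells. The spinal cord column is high for Stmn2, Lin7a and Lmo3, the ventricle columns for Sncg and Calb1, and the columns of Mog and other cells of the Nkx2-2 line for Tubb3.

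Shares of cells with a read depend on depth, so each cell was also thinned to 20000 reads, which every cell had. In the spinal cord the thinned shares were 57.0% for Stmn2, 32.5% for Lin7a, 54.4% for Lmo3, 8.77% for Sncg and 34.2% for Calb1. For Sncg they were 74.7% and 76.2% in the third and the lateral ventricle and 27.4% in the midbrain. For Stmn2 they were 1.25% to 3.15% in the brain regions. Thinned or not, Stmn2 was read in more spinal cord cells than brain cells and Sncg in fewer. The order of neighbouring brain regions changed for both, between the third ventricle and the midbrain for Stmn2 and between the third and the lateral ventricle for Sncg. For comparison, Stmn2 had reads in 2.88% and Calb1 in 6.17% of the Mog cells of the Nkx2-2 line, whose median depth was 1362240 reads. The brain shares of Stmn2 lay within the 95% interval of its share there (1.17 to 5.84%). That interval rests on 7 cells of a deeper group, so it cannot show whether the brain reads are background. Of 13 midbrain Ccdc153 cells with a Stmn2 read, 11 had at least 10 CPM, with a median of 159 CPM. Of the 7 Mog cells, 4 did, with a median of 94.3 CPM. Whether the brain reads are expression was not tested.

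Midbrain cells separated the genes by class. Between Sspo cells and Ccdc153 cells of the same sample, Lmo3 was higher in the Sspo cells (73.6 against 8.80 CPM), where 7.03% of genes were at least 4-fold higher. Sncg (0.715 against 120 CPM) and Calb1 (0.679 against 171 CPM) were lower, where 7.39% were. The share of all genes whose blocks were apart was not computed for this pair, so the block ranges are a description only. Lmo3 ranged from 31.3 to 109 CPM in the 7 blocks of Sspo cells and from 0.225 to 13.6 in those of Ccdc153 cells. Sncg ranged from 0 to 3.02 and Calb1 from 0.0710 to 2.11 in the Sspo blocks, against lowest values of 41.0 and 110 in the Ccdc153 blocks. Lmo3 in Sspo cells was next in level after the spinal cord, and its blocks there overlapped those of the third ventricle. Stmn2 was 0.275 CPM in Sspo cells and Lin7a had 1 read. High Lmo3 was therefore present in cells without Stmn2 and Lin7a, and 16 midbrain cells that met both marker levels were counted with the Ccdc153 cells.

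The 34 other midbrain cells had 45.6 CPM of Stmn2 and 20.3 of Snap25, of which 92.4% and 93.8% came from 1 cell. Astrocyte markers summed to 12785 CPM in these cells. Their levels of the 2 genes are values of single cells.

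In the Nkx2-2 line the order of the genes was another one. Tubb3, the beta-tubulin commonly used to stain neurons, stood at 107 CPM in the Mog cells and 128 CPM in the other cells, with a read in 41.6% and 41.5% of them. In the Foxj1 line it stayed at or below 5.64 CPM in every group. Snap25 was 117 CPM in the other cells (30.2% of cells) and 0.162 in the Mog cells, and Dcx was 18.8 against 0.655 CPM. Lmo3 was 26.9 against 0.235 CPM. Lin7a was 7.44 CPM in the other cells, in 5 of 53, and had 0 reads in 243 Mog cells. All 809 Syt1 reads of the other cells came from 1 cell. Between the other cells and the Mog cells, 5 of the 9 genes reached 10 CPM in either group. Of these, 4 (Lmo3, Snap25, Syt1 and Dcx) were at least 4-fold higher in the other cells, where 23.5% of genes at that level were. None of the 5 was at least 4-fold lower, where 5.92% were. Below that level, Lin7a was higher in the other cells, and Stmn2 and Sncg were lower.

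The 53 other cells were of more than 1 kind. At 10 CPM or more, 28 had Pdgfra, the receptor that marks oligodendrocyte precursors, 18 had Aqp4, the water channel of astrocytes, and 0 had both. The synaptic and immature-neuron genes lay with Pdgfra: 18 of 18 cells with Tubb3, 7 of 7 with Dcx, 13 of 15 with Snap25, 8 of 9 with Lmo3 and 4 of 5 with Lin7a were Pdgfra cells. Pdgfra was not used to choose the genes or to form the class. Stmn2 had 0 reads in all 53 cells. So the genes that led in spinal cord ependymal cells and those that led in these cells shared Lmo3 and a little Lin7a, but not Stmn2.

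The 19 Ccdc153 cells of the Nkx2-2 line had Sncg at 67.0 CPM and Calb1 at 57.0, each read in 5 of the 19, and 0 reads of Stmn2, Lin7a and Snap25. Without the cell with the most reads of each, these were 38.9 and 31.5 CPM. The oligodendrocyte markers summed to 6493 CPM in them, so RNA of oligodendrocytes was present in those wells. In the 12 Sspo cells of that line Lmo3 was 30.8 CPM, of which 98.0% came from 1 cell.

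**Figure D4:**
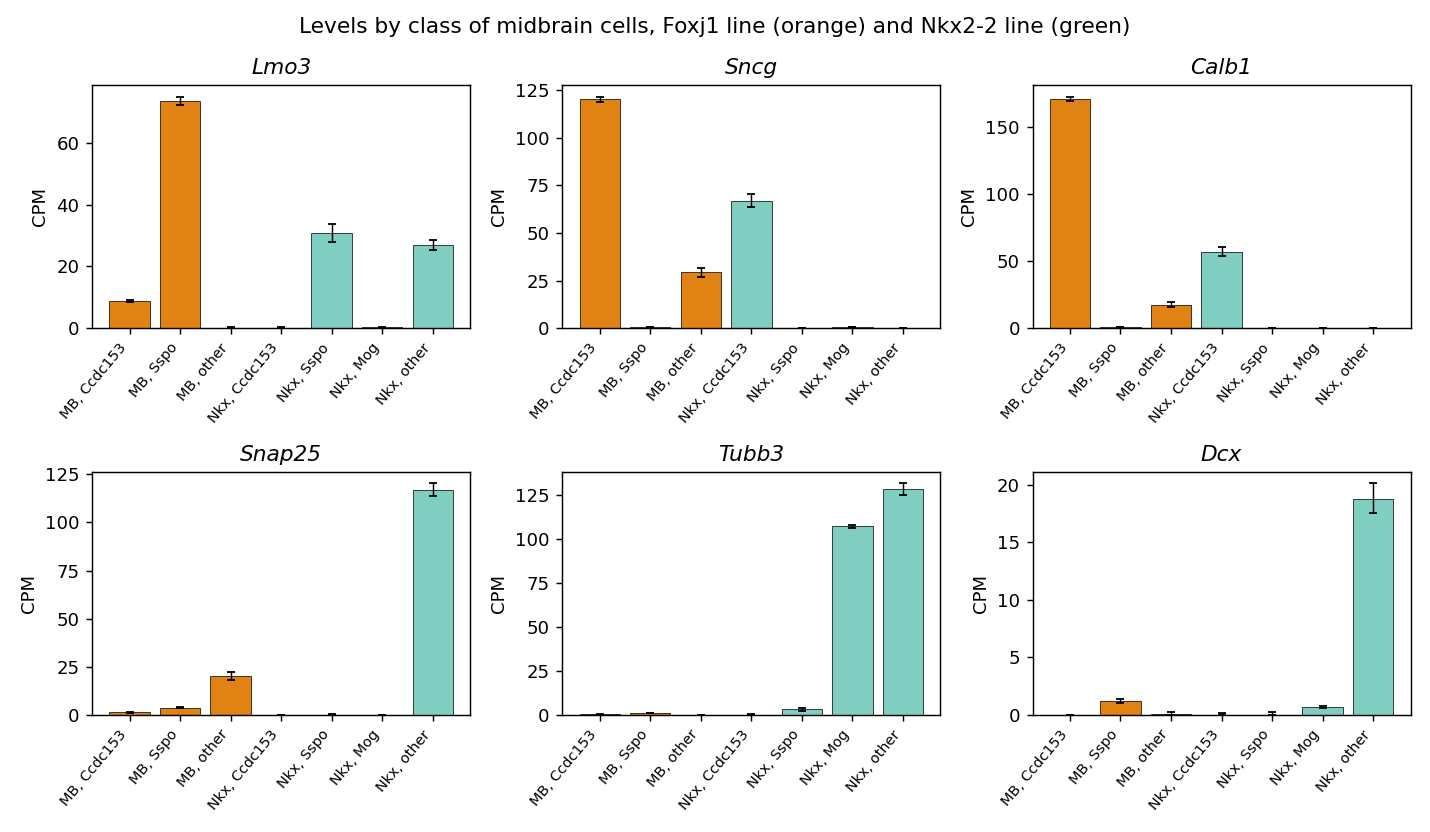
Bars give the CPM of summed reads in each class of midbrain (MB) cells of the Foxj1 line (orange) and of the Nkx2-2 line (Nkx, green), and error bars the exact 95% Poisson interval, which covers counting error only. Lmo3 peaks in the Foxj1 line Sspo cells, Sncg and Calb1 in the Ccdc153 cells, and Snap25, Tubb3 and Dcx in the other cells of the Nkx2-2 line.

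Each gene was set beside its own family, to see whether relatives followed it. The lists below were chosen with results of these data known. They are described by counts at the same 4-fold rule and by the median log2 ratio of spinal cord over the mean of the 3 brain regions, for which the median of all 10823 genes was -0.01. In the stathmin family 3 of 4 genes reached 10 CPM and only Stmn2 was called. Stmn1, the widely expressed stathmin of dividing cells, stood at 10.5 CPM in the spinal cord and 5.61 to 6.60 in the brain regions. Without its top cell the spinal cord had 5.92 CPM of Stmn1. Stmn3 had 0 reads in the spinal cord.

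Of 12 genes of the Lin7 scaffold complex, 8 reached 10 CPM, with a median log2 ratio of 0.46. Lin7a was higher, and Apba2, a Mint adaptor of neurons, was lower, at 7.69 CPM against 40.6 to 48.0. The other Lin7 genes parted: Lin7c, the broadly expressed copy, stood at 141 CPM in the spinal cord and 62.8 to 97.1 in the brain regions, and Lin7b had 0 reads in the spinal cord. Lin7c was the main Lin7 transcript of brain ependymal cells, and spinal cord cells had Lin7a at a like level beside it (44.9 and 31.2 CPM per kb). Their partners Cask (50.7 CPM, against 41.1 to 47.0) and Mpp5 (82.7, against 56.9 to 57.5) differed less.

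In the LIM-only and LDB family 4 of 5 measured genes reached 10 CPM. Lmo3 was the gene called. Lmo4, its more abundant relative, stood at 310 CPM in the spinal cord and 232 to 521 in the brain regions. In the synuclein list Sncg was the gene called. Sncaip, which encodes synphilin, stood at 54.6 CPM in the spinal cord and 74.7 to 113 in the brain regions.

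Among EF-hand calcium buffers 12 of 13 measured genes reached 10 CPM, with a median log2 ratio of -0.90. One of them, S100a6, was lower in the spinal cord, at 21.7 CPM against 109 to 615. Calb2, the closest relative of Calb1, was 18.0 CPM in the spinal cord and 0.590 to 6.13 in the brain regions, a step of 2.93-fold. Pvalb, parvalbumin, had the direction of Calb1, at 38.8 CPM against 141 to 193.

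None of 20 SNARE genes that reached 10 CPM was called, with a median of 0.29. Of 6 synaptotagmins, Syt3 was higher, at 12.1 CPM against at most 1.80, with reads in 3.51% of spinal cord cells. Without the cell with the most reads it was 7.63 CPM, and the call was lost. Of 4 beta-tubulins, Tubb6 was higher, at 10.2 CPM against at most 1.05, with 99.4% of its spinal cord reads in 1 cell and 0.0646 CPM without it. Tubb4b, the tubulin of cilia, was at 904 CPM in the spinal cord against 1628 to 2143, and Tubb5 was at 325 CPM against 94.7 to 132. Of the spinal cord reads of Tubb5, 40.3% came from 1 cell, without which it was at 198 CPM. Of 5 doublecortin-family genes none was called. Dclk1, a microtubule-associated kinase related to Dcx, was 34.4 CPM in the spinal cord and 6.07 to 19.3 in the brain regions. How reads shared by near-identical copies such as the beta-tubulins were assigned is not given in the sources used here, and Smart-seq2 does not mark strand.

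Of 29 pan-neuronal genes in the table, 16 reached 10 CPM and none was called in either direction (median 0.31). Map2, the dendritic microtubule protein, was 241 CPM in the spinal cord and 115 to 146 in the brain regions. Uchl1, a neuronal ubiquitin hydrolase, was 152 against 141 to 244. Of the 29 genes, 5 had 0 reads in the spinal cord, Rbfox3 and Elavl4 among them, against 0 to 2 in the brain regions. Rbfox3 had 0 reads in the lateral ventricle too. Of the neuroblast genes 3 reached 10 CPM, and none was called. Of 4 genes of cerebrospinal fluid-contacting neurons, cells that sit in the central canal wall of the spinal cord, 3 lay above the brain mean. The median log2 ratio of the 4 was 2.199. Nkx6-1 stood at 138 CPM in the spinal cord (reads in 71.1% of cells) and at most 47.0 in the brain regions. Gata3 stood at 20.8 CPM against at most 10.9. Gad1 went the other way, at 0.359 CPM against 1.31 to 15.1. By the 4-fold rule only Pkd2l1 was higher. This channel, which defines those neurons, stood at 10.7 CPM in the spinal cord and at most 2.62 in the brain regions, with reads in 3.51% of spinal cord cells, against 67.5% with Stmn2. Without the cell with the most reads its level was 6.78 CPM, below the minimum of 10 CPM, and the call was lost. Pkd2l1 stood at 156 CPM in the Mog cells of the Nkx2-2 line, above its level in the spinal cord.

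**Figure D5:**
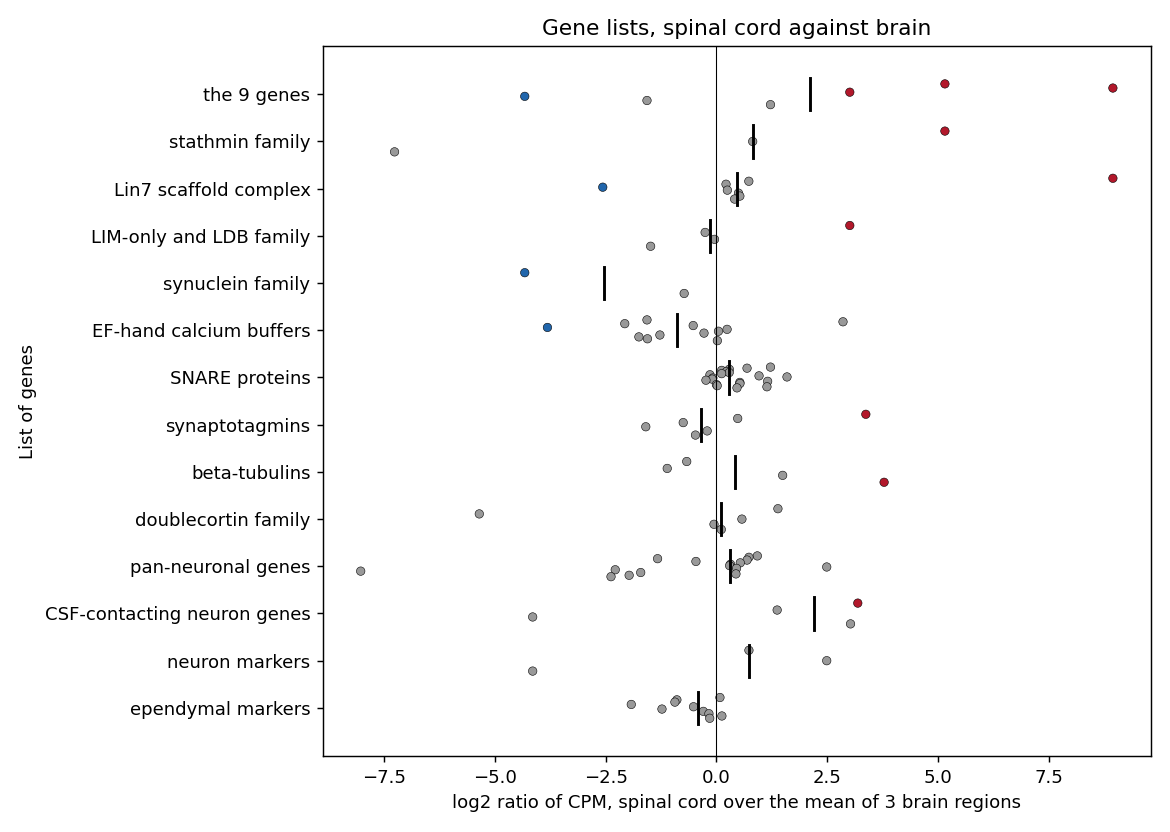
Each point is a gene of the named list that reached 10 CPM in a region, placed by its log2 ratio of CPM in spinal cord cells over the mean of the 3 brain regions, with red for genes at least 4-fold higher than every brain region, blue for those at least 4-fold lower and grey for the rest. The vertical bars mark the medians, and in the stathmin, Lin7, LIM-only and synuclein lists the coloured point of the gene described here stands apart from its relatives.

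Over the 15 blocks of the 4 regions, the genes whose log2(CPM + 1) followed each of these genes most closely were named by Pearson's r, with blocks of 1 region sharing a sample. For Stmn2 they were Pcsk2 (r = 0.94), Cux1 (0.92) and Col18a1 (0.89). Pcsk2, a prohormone convertase, stood at 601 CPM in the spinal cord and 53.8 to 188 in the brain regions. For Lin7a they were Agr3 (0.998), Abcc3 (0.99) and Slc6a4 (0.98), of which Slc6a4, the serotonin transporter, stood at 19.5 CPM in the spinal cord and at most 0.0736 in the brain regions. For Lmo3 they were Fam84a (0.91), Msl3l2 (0.86) and Ptx4 (0.86).

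Sncg was followed by Apoe (0.95), Fbxo2 (0.92) and Trpc7 (0.91). Apoe, the apolipoprotein of glia, stood at 619 CPM in the spinal cord, 5082 in the midbrain, 11886 in the third ventricle and 13254 in the lateral ventricle, so its regional step was of the same kind as that of Sncg. Calb1 was followed by Atoh8 (0.88), Plscr4 (0.88) and Prrx1 (0.87), and Snap25 by Crb1 (0.91), Rasl11b (0.88) and Adamtsl1 (0.87). These lists differ from gene to gene, with no name in more than 1 of them.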

How the data were processed

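Read counts per gene and cell were deposited by the authors as whole numbers, not normalized, and log2 values of the same cells were deposited in a second table. The log2 values equalled log2(count / size factor + 1) with 1 factor per cell, within 0.01 for 100% of values. STAR 2.3.1o, Seurat 3 and the mm10 build are named in the submitters' processing notes. The counting tool and annotation are not given in the sources used here. Gene positions and exon lengths came from GENCODE vM21 on GRCm38, and promoter windows from RefSeq.

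For each group the raw counts of its cells were added up and scaled to CPM of reads in genes (Python 3.11.15, numpy 2.4.6, pandas 2.3.3, scipy 1.17.1). Group totals were 94640544 (spinal cord), 180906553 (lateral ventricle), 203810153 (the third ventricle) and 255868139 reads (midbrain Ccdc153 cells). The shallowest of 1473 cells had 108417 reads. Every cell was kept. Doublets were not called, because 1 cell was sorted into each well. Columns belonging to no sample numbered 0. CPM has exact Poisson and shares have exact Clopper-Pearson 95% intervals. The floor for a count of 0 was 3 reads, or 3 cells for a share. Cells, wells and blocks were not treated as replicates.

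The members and lists were chosen with earlier results of these data known. Named were the 9 genes, listed genes at 10 CPM that differed 4-fold (at most 5 a list), the most abundant relative of each gene and the 3 genes most correlated with each over blocks. Further relatives and complex partners were named after their values were seen. The alternatives were other summaries (mean CPM per cell, the deposited log2 values), other minimum levels and Ccdc153 thresholds, and leaving out cells, blocks or wells. The calls were tested on simulated data. A few genes of the lists are not reported here.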

Additional observations from a re-analysis of the deposited data

How the results depend on the processing

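No paired analysis was possible because each group holds 1 sample and no test was made. Under all 13 alternatives, 12 planned and 1 added after seeing the data (leaving out cells with neuron markers), Stmn2, Lin7a and Lmo3 stayed at least 4-fold higher in the spinal cord and Sncg at least 4-fold lower. Snap25 joined the higher genes under 2 of them. The fold ranged from 14.0 to 45.0 for Stmn2, 4.55 to 5.28 for Lmo3 and 5.50 to 15.4 for Sncg. For Lin7a the lowest was 116, and under 3 alternatives 0 brain reads remained. Levels of listed genes without their top cell were added after seeing the data, and Pkd2l1 and Syt3 then lost their calls, as did Tubb6. Over all genes, 145 were higher and 236 lower. With no minimum level these were 276 and 1457, with at least 20 CPM 90 and 144, and without the first spinal cord block 165 and 408. With 1 sample a region, differences between animals, plates and regions cannot be told apart, and genes below 1 CPM rest on few reads in few cells.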
